A study of Sus scrofa domesticus with 4 samples.

Results

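Adrenomedullin (ADM) and angiotensin-converting enzyme (ACE) were followed in explants of pig myometrium cultured with or without orexin A (OXA). They are 2 of the 3029 genes that could be named on the array, and were read by 3 of its 43603 probes: 1 for ADM (transcript NM_214107) and 2 for ACE (transcripts NM_001033015 and NM_001083941). All probes whose design accession is a RefSeq transcript of either gene were taken. Both genes were selected on the log2 ratios of these same 4 arrays, where each had a probe above 0 on every array. Their ratios are therefore given as a description, without a test. Of the 3 probes, 2 gave a measured level in both channels of every array, and the second ACE probe did not.

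ADM encodes a secreted peptide that relaxes vascular and uterine smooth muscle and promotes growth of blood vessels. It signals through the receptor CALCRL, which needs the accessory protein RAMP2 or RAMP3 to bind adrenomedullin, while RAMP1 turns the same receptor towards the calcitonin gene-related peptide. ADM transcription is a well-known target of hypoxia-inducible factors. ACE is a membrane peptidase, abundant on endothelium, that converts angiotensin I into the vasoconstrictor angiotensin II and also breaks down the vasodilator bradykinin. The 2 genes thus stand for opposing influences on the tone of vessels and of smooth muscle.

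The tissue came from the middle of the uterine horns of 4 gilts (Large White x Polish Landrace, 7 to 8 months old) on days 15 to 16 of gestation, when conceptuses begin to implant. Explants of about 100 mg were preincubated for 2 h and then kept for 24 h with OXA or, as non-treated controls, without it, in medium with bovine albumin and calf serum shared by both groups. The sample labels give OXA at 10 nM, whereas the design text of the series gives 10 µM, and it is not known here which applies. Each of 4 arrays compared OXA with non-treated RNA, with a dye swap: OXA was labelled with Cy5 on arrays 1 and 3, and with Cy3 on the other two. The labels speak of 4 gilts and of separate experiments with duplicate cultures, but leave unsaid whether an array pairs treated and control tissue of 1 gilt. P-values therefore measure the spread between these 4 hybridisations. With a dye term in the fit, this is the spread between arrays of the same dye orientation. An explant is a mixed tissue, in which fewer cells of a type and less RNA per cell cannot be told apart.

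Across the 19501 tested probes array 2 ran against each of the others. Over probes, its r was -0.59 with array 1, -0.30 with array 3 and -0.38 with array 4, which like array 2 had OXA in Cy3. Arrays 1 and 4 ran together at 0.62 and arrays 1 and 3 at 0.23, while r was -0.059 between arrays 3 and 4. The direction of every ratio below rests on the dyes given in the sample labels. The labelling protocol words it differently, with OXA in Cy5 throughout. Explants expressed smooth muscle genes strongly: the 7 markers that could be named, among them desmin (DES) and alpha smooth muscle actin (ACTA2), were well above background in both channels of all 4 arrays.

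The comparison asks whether transcript levels differ between OXA-treated and non-treated myometrium. ADM signal was higher in the OXA channel than in the non-treated channel of every array. Non-treated tissue gave processed signals of 6829, 15796, 16396 and 9560 on arrays 1 to 4. OXA-treated tissue gave 9872, 23196, 27845 and 10998 on the same arrays. Arrays 2 and 3 had the high levels in both channels and arrays 1 and 4 the low ones, so that the 2 groups overlapped widely. Within the non-treated channels the highest signal was 2.40 times the lowest, which exceeds the OXA over non-treated ratio on any array. The log2 ratios were 0.53, 0.55, 0.76 and 0.20, or 1.15-fold to 1.70-fold, with a mean of 0.51 ± 0.23 (SD, n = 4), 1.43-fold. On array 4 the ratio was no larger than the scanner's own error of a log2 ratio for this spot, 0.20. On the other 3 arrays it was more than 2 times that error, which lay between 0.21 and 0.22.

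ACE signal was also higher in the OXA channel of every array, as read by the probe for NM_001033015. Non-treated tissue gave 14375, 14937, 10588 and 20074 on arrays 1 to 4, and OXA-treated tissue 29188, 18745, 14911 and 41012. Array 4 was highest and array 3 lowest in both channels, and the groups overlapped. The log2 ratios were 1.02, 0.33, 0.49 and 1.03, or 1.25-fold to 2.04-fold, with a mean of 0.72 ± 0.36 (SD, n = 4), 1.65-fold. Arrays 1 and 4 thus showed about a doubling of signal, while arrays 2 and 3 showed a smaller difference. Every ratio was above the scanner's error, which was 0.21 to 0.22. No spot of either gene carried an outlier flag.

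**Figure D1:**
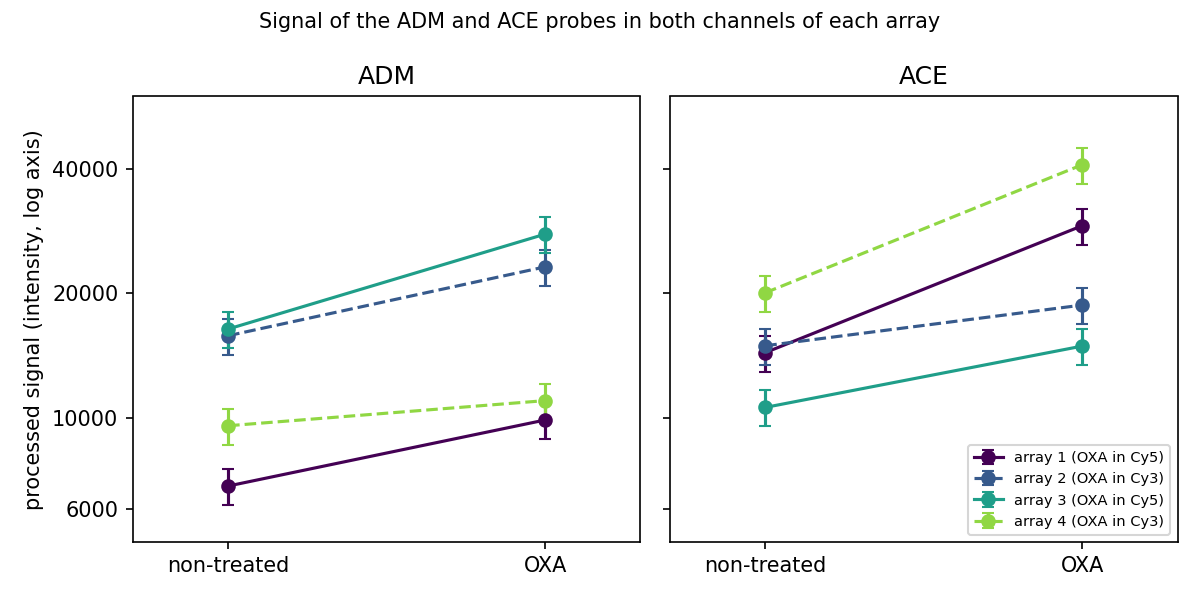
Processed signal (intensity, log axis) of the ADM and ACE probes in the non-treated and OXA channels, with a line for each of the 4 arrays. Bars give the scanner's error of the signal, and dashed lines mark the arrays with OXA in Cy3. All 8 lines run upward, and the levels of the 2 groups overlap in both panels.

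The second ACE probe, for NM_001083941, was not well above background in 7 of 8 channels. Its processed signals ran from 7.06 to 25.9, and the single exception was the non-treated channel of array 4, with 25.9. With 0 of 4 OXA channels and 1 of 4 non-treated channels measured, no fold is given for it. The ACE level described here is therefore that of 1 probe, and which exons each probe covers is not given in the sources used here. ADM likewise rests on 1 probe.

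The size of the ratio was ordered differently for the 2 genes. ADM was highest on array 3 and lowest on array 4, whereas ACE was highest on arrays 1 and 4 and lowest on array 2. The ACE log2 ratio exceeded that of ADM by 0.49 on array 1 and 0.83 on array 4, and was below it on arrays 2 and 3, with differences of -0.23 and -0.27. Over the 4 arrays the difference averaged 0.21 ± 0.54 (SD, n = 4), within the spread between arrays. Ratios above 0 in both dye orientations follow from the choice of the genes, each with a probe above 0 on every array. With OXA in Cy5 (arrays 1 and 3) ADM averaged 0.65 and ACE 0.76, and with OXA in Cy3 (arrays 2 and 4) they averaged 0.38 and 0.68.

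Read against all tested probes, the ratios of both genes lay above the median of every array. These medians were 0.003, -0.046, 0.002 and 0.009, so the choice of genes above 0 on every array all but fixed this position. ADM stood at the 78.1, 76.4, 96.8 and 59.8 percentile of arrays 1 to 4, and ACE at the 93.1, 68.2, 91.6 and 94.1 percentile. Array 3 had the narrowest spread, with an SD over probes of 0.44 against 0.78 to 0.84 on the others, so that the ADM ratio of 0.76 was above its 95th percentile of 0.64. A ratio above 0 on all 4 arrays, the pattern on which both genes were chosen, was shown by 773 of 19501 tested probes (3.96%). These included probes of 153 of the 1985 named and tested genes. A mean log2 ratio at or above that of ADM was found for 4.85% of tested probes, and at or above that of ACE for 1.74%. Both shares rest on the ratios by which the genes were chosen and are a description only. None of the tested probes passed limma at an adjusted p of 0.05 (0 of 19501, 0%), ADM and ACE included, and 234 had an unadjusted p under 0.05. The count was likewise 0 when the channels were fitted separately in limma, where 639 probes had an unadjusted p under 0.05.

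**Figure D2:**
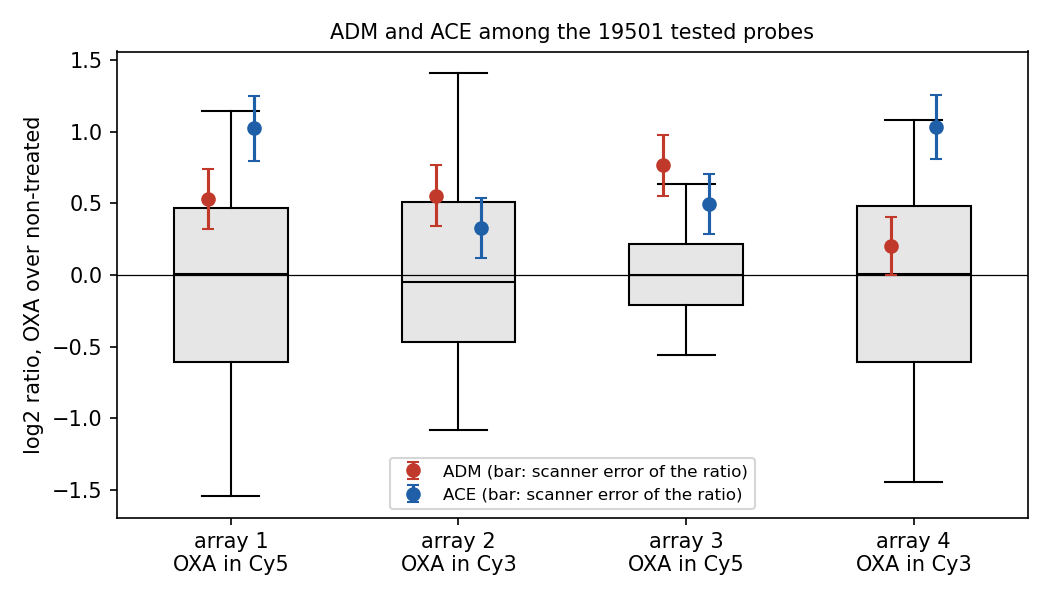
Log2 ratio of OXA over non-treated on each array for ADM (red) and ACE (blue), with bars for the scanner's error of the ratio. Grey boxes give the quartiles and median of the 19501 tested probes, and whiskers their 5th and 95th percentiles. ADM and ACE lie above 0 on all arrays; ADM passes the 95th percentile on array 3, and ACE stays below it on each array.

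Levels were also set on a common scale by quantile normalization of the average intensities between arrays. On this log2 scale ADM levels spread over 12.71 to 14.23 in non-treated and 13.12 to 14.99 in OXA-treated tissue. The SD between arrays was 0.77 and 0.95, larger than the mean difference of 0.51. Both groups share each array, so that difference has its own spread, an SD of 0.23 over the 4 ratios on which ADM was chosen. ACE levels varied less, from 13.61 to 13.97 in non-treated and from 14.10 to 14.95 in OXA-treated tissue. The SD of ACE was 0.16 in non-treated and 0.42 in OXA-treated tissue. The lowest OXA level of ACE was thus above its highest non-treated level on this scale, a separation shown by 104 of 19501 tested probes (0.533%). It was not seen in the processed signals, where the groups overlapped, and ACE was chosen on the same contrast.

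The sign on array 2 depended on the correction of dye intensity. Raw median signals of ADM on array 2 were 24607 in the OXA channel (Cy3) and 34819 in the non-treated channel (Cy5), and those of ACE were 23018 and 39536. On array 4 the raw signal of ADM was also lower with OXA, 8910 against 9911, while that of ACE was higher. Raw signals precede every part of the dye normalization, so they do not show its intensity-dependent part alone. Without the intensity-dependent part of the dye correction, the array 2 log2 ratio was -0.05 for ADM and -0.33 for ACE, while the other 3 arrays stayed above 0. The means were then 0.63 ± 0.49 for ADM and 0.77 ± 0.86 for ACE (SD, n = 4). With normexp background correction and loess on the median signals, both genes were above 0 on all 4 arrays, at 0.57 ± 0.13 for ADM and 0.71 ± 0.35 for ACE (SD, n = 4). If the recorded direction of array 2 is turned, ADM averages 0.24 ± 0.58 and ACE 0.55 ± 0.64 (SD, n = 4). If the wording of the labelling protocol is followed and Cy5 is read as OXA throughout, the averages are 0.13 ± 0.62 and 0.039 ± 0.90 (SD, n = 4), and dye and OXA cannot be told apart.

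**Figure D3:**
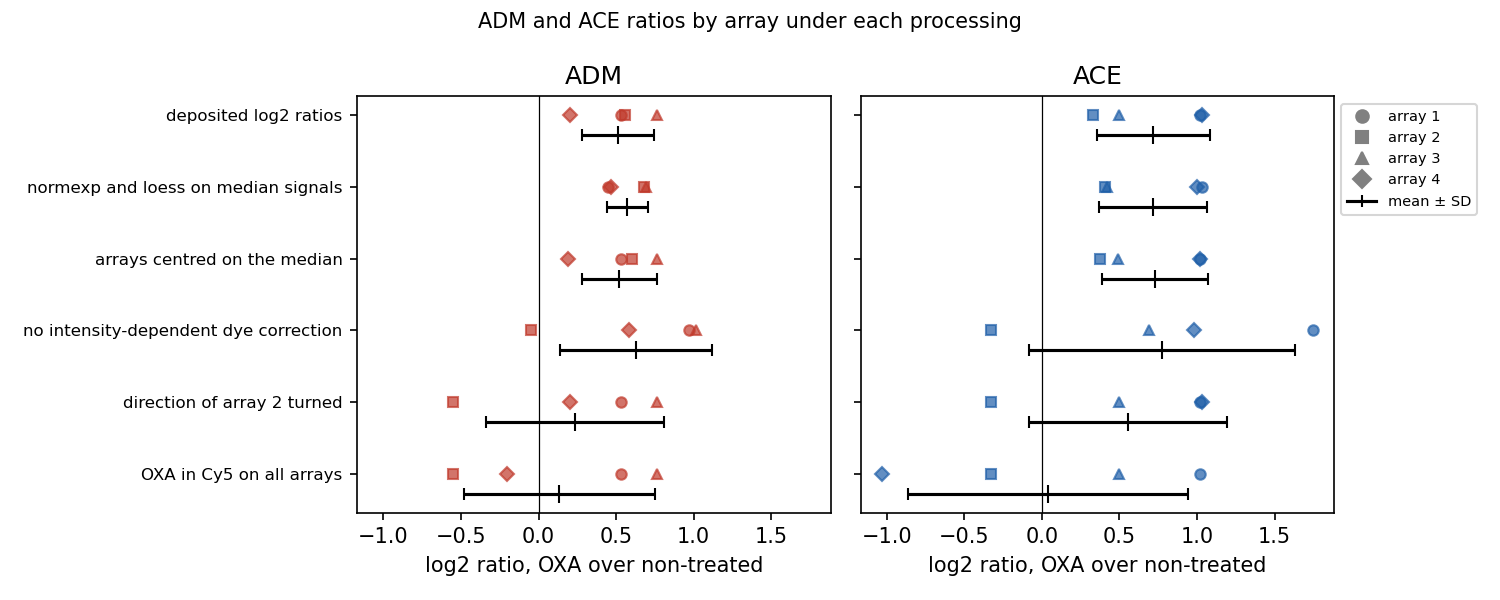
Log2 ratio of OXA over non-treated for ADM and ACE under 6 ways of processing, with a symbol for each array and the mean ± SD (n = 4) below it. Array 2 (squares) is below 0 without the intensity-dependent dye correction and under both other readings of the direction, and above 0 otherwise; array 4 (diamonds) is below 0 only with OXA read as Cy5 on all arrays.

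The partners of adrenomedullin were measured in part. Of 13 listed genes of the adrenomedullin and calcitonin gene-related peptide family, 9 were named and 6 were measured, and 0 of the 6 passed limma. The receptor gene CALCRL had 3 probes, none of them measured; the brightest was well above background in 1 OXA and 1 non-treated channel. RAMP3 was well above background in 2 OXA channels and 1 non-treated channel, and CALCR, the calcitonin receptor, in none, so no ratio is given for these 3 genes. RAMP2 was detected in all 8 channels, with log2 ratios of 0.24, -0.67, 0.003 and 0.19 and a mean of -0.06 ± 0.42 (SD, n = 4). RAMP1 was likewise detected in all channels, with 0.38, -0.37, -0.04 and 0.29 and a mean of 0.07 ± 0.34 (SD, n = 4). Both accessory proteins were thus below 0 on array 2, on which ADM was above 0, and their means lay within their spread of 0. ACKR3, an atypical receptor that scavenges chemokines and adrenomedullin, had 0.50, 0.04, 0.61 and 0.13, with a mean of 0.32 ± 0.28. It was the only measured gene of this family besides ADM with ratios above 0 on all 4 arrays. CALCB, which encodes a calcitonin gene-related peptide, had 1.16, -0.27, 0.01 and 0.91 (mean 0.45 ± 0.69), and ADM5, a relative of adrenomedullin, had -0.33, -0.80, 0.28 and 0.35 (mean -0.12 ± 0.54). Without ADM, the 5 measured members had a median of 0.07, beside -0.02 over all tested probes.

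Of the angiotensin system, 9 of 22 listed genes were named, 8 were measured and 0 passed limma. The angiotensin precursor AGT and the receptors AGTR1 and AGTR2 were not matched to a probe by accession and are not analysed here. Besides ACE, the measured members were 7 peptidases, of which 2 had a mean above 0 and 5 below, with a median of -0.09. These signs are those of the brightest probe. Means of the 3 tested ANPEP probes ran from -0.09 to 0.38, and those of the 2 tested PREP probes from -0.10 to 0.08. None of the 7 had the same sign on all 4 arrays. LNPEP, an aminopeptidase that binds angiotensin IV and cleaves oxytocin, had -0.94, 0.58, -0.44 and -0.78 and a mean of -0.39 ± 0.68 (SD, n = 4). THOP1, an oligopeptidase that cleaves angiotensin I, had 0.64, -0.10, -0.21 and 0.80 and a mean of 0.29 ± 0.51. ENPEP, the aminopeptidase that cleaves angiotensin II, had -0.95, 1.15, -0.51 and -0.30 and a mean of -0.15 ± 0.91; it was well above background in 2 OXA channels and all 4 non-treated ones. CTSD, the lysosomal protease cathepsin D, had -0.21, -0.65, -0.39 and 0.87 and a mean of -0.09 ± 0.67. NLN, neurolysin, had -0.57, 0.93, -0.12 and -0.61 (mean -0.09 ± 0.72). For each of these 7 genes the SD between arrays exceeded the size of the mean.

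ACE inactivates bradykinin, whose main receptor, BDKRB2, was not matched to a probe and is not analysed here. BDKRB1 is the inducible kinin receptor, which responds chiefly to kinin fragments that carboxypeptidases make. Of 14 listed genes of kinins and other ACE substrates, 4 were named and BDKRB1 was the 1 measured. Its log2 ratios were 0.57, 0.07, -0.47 and 0.99, with a mean of 0.29 ± 0.63 (SD, n = 4). As for ACE, they were higher on arrays 1 and 4 than on arrays 2 and 3. No ratio is given for the other 3, which were not measured.

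Other vasoactive genes were mixed in sign. Of 28 listed genes of endothelins, natriuretic peptides, nitric oxide and prostacyclin, 13 were named and 8 measured, with 5 means above and 3 below 0, a median of 0.06 and 0 passing limma. EDNRA, the endothelin receptor of smooth muscle, was the only one above 0 on all 4 arrays, at 0.30, 0.25, 0.15 and 0.21, with a mean of 0.23 ± 0.06 (SD, n = 4). EDNRB, the other endothelin receptor, had 0.63, -0.03, 0.16 and 0.13 and a mean of 0.22 ± 0.29. The largest means by size were below 0. PRKG1, the cGMP-dependent kinase that relaxes smooth muscle, had -0.38, 0.46, -0.14 and -2.50 and a mean of -0.64 ± 1.29. NPPC, the C-type natriuretic peptide, averaged -0.29 ± 0.80, and the inducible synthase NOS2 -0.26 ± 0.55. PRKG1 and NPPC were each well above background in 2 OXA channels and 3 non-treated ones, so they entered through the non-treated group, which favours a mean below 0; the same holds for ENPEP.

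**Figure D4:**
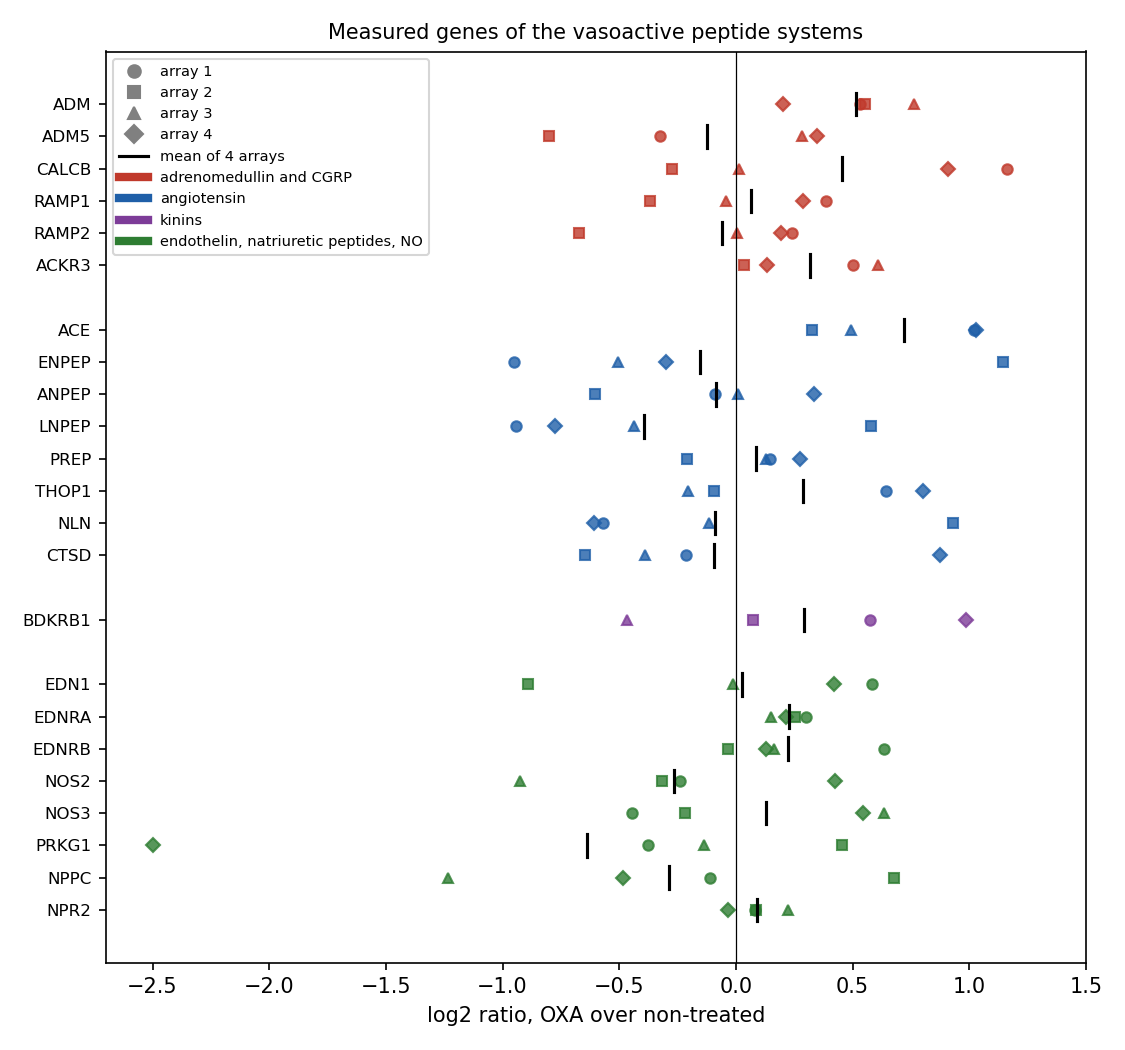
Log2 ratio of OXA over non-treated on each array (symbols) and the mean of 4 arrays (black bars) for measured genes of the adrenomedullin, angiotensin, kinin and endothelin, natriuretic peptide and nitric oxide groups. Only ADM, ACKR3, ACE and EDNRA have all 4 symbols above 0.

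ADM is a classical hypoxia-inducible gene, and the vessel growth factor VEGFA is another. Of 17 listed hypoxia response genes without ADM, 8 were named and measured, 7 means were above 0 and 0 passed limma. VEGFA had 0.95, 0.46, 0.36 and 0.95 with its brighter probe and a mean of 0.68 ± 0.31 (SD, n = 4), and both of its probes were above 0 on all 4 arrays. DDIT4, a stress-induced inhibitor of mTOR signalling, had 0.97, 1.29, 0.83 and 0.66 and the largest mean of the 8, 0.94 ± 0.27. The glycolytic enzyme ALDOC had 0.99, 0.37, 0.39 and 0.74 (mean 0.62 ± 0.30). LDHA, which makes lactate from pyruvate, had 0.67, 0.08, 0.22 and 0.37 (mean 0.34 ± 0.25). HK2, a hexokinase, was below 0 on array 2, with -0.61, and averaged 0.36 ± 0.70. HIF1A, a hypoxia-inducible factor gene, had the 1 mean below 0, -0.31 ± 0.50, while EPAS1 averaged 0.13 ± 0.40 and PGK1 0.21 ± 0.33. These signs are those of the brightest probe, and means of the 6 tested PGK1 probes ran from -0.01 to 0.31. Of the 8, 4 were above 0 on all 4 arrays. That pattern was shown by 3.96% of all tested probes, and 153 of 1985 named and tested genes had such a probe. The list was fixed with earlier results known, and a part of hypoxia in the ADM and ACE ratios was not tested. The median of the 8 means was 0.35, beside -0.02 over all tested probes. The list's median ratio per array averaged 0.46, and 0.040 with Cy5 read as OXA throughout.

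Markers of cell types that express ACE or ADM were set beside these values. For endothelium, 6 of 14 listed markers were named and measured, PECAM1, CDH5 and VWF among them, and all 6 were well above background in every channel. Their median log2 ratios were -0.35, -0.55, 0.11 and 0.59 on arrays 1 to 4. The summed signal ran from 5947 to 9041 in non-treated and from 4657 to 12290 in OXA-treated tissue. The log2 ratios of the summed signal were -0.35, -0.13, 0.17 and 0.54 on arrays 1 to 4. On array 2 only PECAM1 was above 0, at 0.41. The others there were CDH5 at -0.02, VWF at -0.35, ENG at -0.95, ICAM2 at -0.76 and CLDN5 at -0.96. For macrophages, 8 of 11 markers were named and measured, with medians of 0.70, -0.66, 1.98 and 0.73 and summed signals of 1424 to 5404 in non-treated and 1309 to 9092 in OXA-treated tissue. With the brightest probe all 8 had a mean above 0, and none was above 0 on all 4 arrays. Means of the 2 tested CD163 probes ran from -0.09 to 0.13. Their median was highest on array 3 and below 0 on array 2. Uterine epithelium, with 5 of 11 markers measured, had medians of -1.37, 2.06, -1.18 and 1.87. Its summed signal ran from 345 to 2873 in non-treated and from 138 to 12177 in OXA-treated tissue. Smooth muscle markers had medians of -0.08, -0.17, 0.23 and -0.28, with summed signals of 275706 to 779224 in non-treated and 285405 to 644920 in OXA-treated tissue. The 3 stromal markers had medians of -0.14, -0.43, 0.19 and -0.59. None of the 7 named lymphocyte markers passed the filter. With the brightest probe of each, CD3G was well above background in 1 OXA and 2 non-treated channels, and CD3E and CD8A in 1 non-treated channel each. The part of cell composition in the ADM and ACE ratios was not tested.

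The genes whose ratios lay nearest to each of the 2 were ranked by the root mean square difference of the 4 log2 ratios, over 1984 other named and tested genes with 1 probe each. ACE was closest to VEGFA, at 0.11. Next came SLC7A7, an amino acid transporter subunit, with 0.15, the glycolytic enzyme ALDOC with 0.15, OXT, the oxytocin precursor, with 0.16, and the apolipoprotein gene APOA2 with 0.18. All 5 shared with ACE the higher values on arrays 1 and 4: OXT, for example, had 0.90, 0.15, 0.32 and 0.89. ADM was closest to CTGF, a matricellular growth factor, at 0.16, with ratios of 0.64, 0.68, 0.56 and 0.01. PRKAB2, a regulatory subunit of AMP-activated kinase, followed at 0.19, SMAD3, a mediator of TGF-beta signalling, at 0.21, DRAM2 at 0.21 and FCGRT, the neonatal Fc receptor, at 0.23. CTGF, PRKAB2, SMAD3 and DRAM2 had, as ADM did, their lowest value on array 4. ACE itself was 237th in nearness to ADM and ADM 216th in nearness to ACE, at 0.51, beside medians of 0.74 and 0.79 over all genes. The likeness rests on 4 values per gene, and the genes were picked from many, so it is given as a description.

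**Figure D5:**
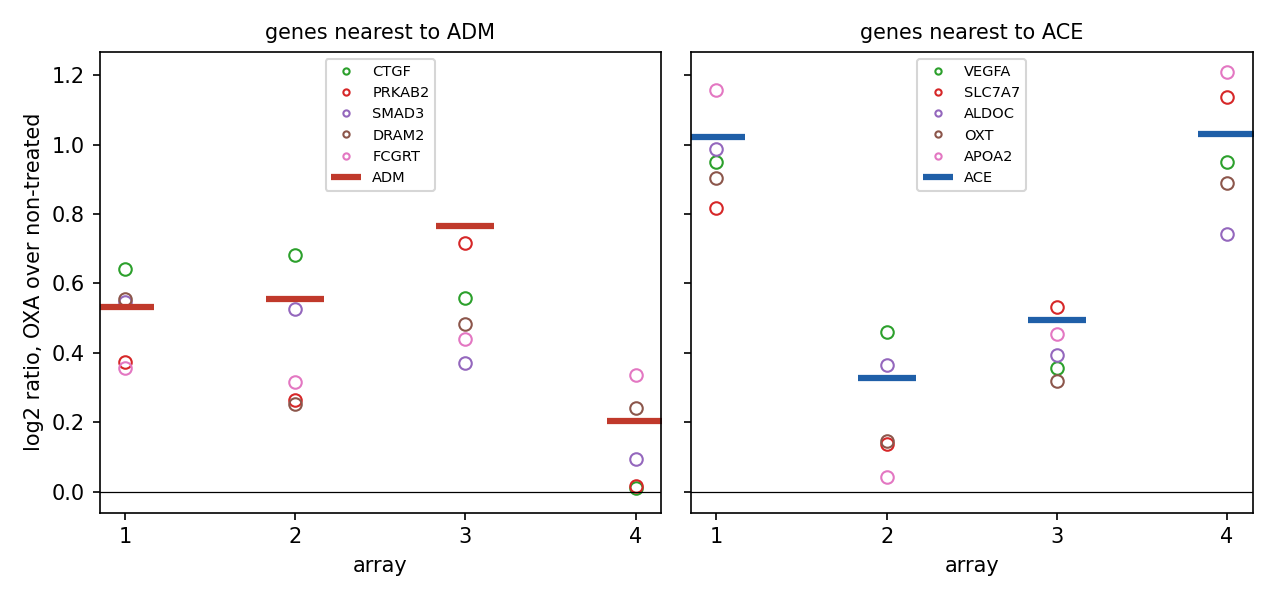
Log2 ratio of OXA over non-treated on arrays 1 to 4 for ADM and ACE (bars) and the 5 genes nearest to each (circles). In the ADM panel, ADM and 4 of the 5 genes are lowest on array 4 (FCGRT on array 2), and in the ACE panel all are highest on arrays 1 and 4.

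Of the orexin genes, HCRT, the prepro-orexin transcript, was well above background in all 8 channels, with 0.92, -0.79, 0.33 and 0.14 and a mean of 0.15 ± 0.71 (SD, n = 4). HCRTR1 and HCRTR2 encode the receptors through which OXA acts. The HCRTR1 probe and the brighter of 2 HCRTR2 probes were not well above background in any channel. The other HCRTR2 probe did not pass the filter.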

How the data were processed

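Per the file headers, the deposited scanner files came from Agilent Feature Extraction 10.7.3.1 and hold spot and background intensity on a linear scale, with processed signal intensity after background subtraction, spatial detrending and linear and lowess dye normalization. They also hold, per the file headers, a log10 ratio of Cy5 over Cy3 with its error and a p-value, which was not used. The deposited value table holds log2 ratios. Set against the scanner files, 100% of probes with 1 spot were within 0.001 of the log2 ratio of processed signals. Its slope on Cy5 over Cy3 was 1 on arrays 1 and 3 but -1 on the swapped arrays, which gives the direction of OXA over non-treated by the sample labels. Its medians over all probes were 0.10, 0.10, -0.19 and 0.07, and no centring was found.

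Levels are processed signals and ratios are the deposited log2 values. A probe was tested if either group's channel exceeded background clearly, by the scanner's call, on 3 or more arrays (19501 probes). limma 3.58.1 in R 4.3.3 fitted OXA and a dye term (2 residual degrees of freedom), two-sided, with Benjamini-Hochberg adjustment at 0.05. The fit was tested on simulated data. Accessions were matched without versions to a RefSeq table of Sscrofa11.1, for names only; 6700 probes were named. Each gene is given by its brightest tested probe, and the number of arrays limits precision. Named genes are, for each list, the 5 with the largest mean by size and fixed receptor, ligand and orexin genes. The remaining measured hypoxia and angiotensin genes, unmeasured relatives of ADM and example cell markers were named besides. The members, lists and rules were chosen with earlier results of these data known. Some items are not reported here.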

Additional observations from a re-analysis of the deposited data

How the results depend on the processing

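The ADM and ACE means moved by less than 1 SD with normexp and loess, centring and no intensity-dependent dye correction. Filters and averaged probes could not move them, since each has 1 tested probe, and leaving out an array could not turn a mean whose 4 ratios were chosen to be above 0. Turning array 2 gave 0.24 for ADM, and reading Cy5 as OXA throughout gave 0.13 for ADM and 0.039 for ACE; these readings turn the sign of 1 or 2 arrays by construction. Leaving out 1 array gave 0.43 to 0.62 for ADM and 0.61 to 0.85 for ACE. Probes above 0 on all 4 arrays numbered 773, against 3445 with array 2 turned and 1117 to 4218 on the remaining arrays with 1 left out (4218 without array 2). limma called 0 probes in each fit on all 4 arrays, separate channels with the array as a replicate block included, with 181 to 5263 at an unadjusted p under 0.05 (5263 with array 2 turned). It called 1 to 1093 with 1 array left out, 1093 of them without array 2 and at most 6 otherwise, neither ADM nor ACE among them. Those fits have 1 residual degree of freedom, and the spread comes from the 2 arrays of the same orientation. The mean of a list's array medians moved by more than 1 SD in 5 cases, all with Cy5 read as OXA throughout (hypoxia, endothelin, smooth muscle, epithelial and stromal lists), and by less in 127. With ACE included, the angiotensin list gave 0.028, a value that turned below 0 in 4 of 12 alternatives.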
